A study of Mus musculus with 6 samples.

Results

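The EGR and NR4A immediate early factors were followed in the pituitary glands of male mice labelled HFD and RD. They are the 7 genes EGR1, EGR2, EGR3, EGR4, NR4A1, NR4A2 and NR4A3, chosen by symbol from the 16736 rows of the deposited count table. All 7 passed the filter on low counts and were among the 13873 genes tested. In each of the 7 the mean was higher in HFD than in RD pituitaries, and 3 of them, EGR4, EGR1 and NR4A3, rose past the threshold of an adjusted p under 0.05, which 5.87% of all tested genes passed in that direction. The 7 also moved together between libraries of the same group, with HFD replicate 2 the lowest HFD library and RD replicate 2 the lowest RD library for every one of them.

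Bulk RNA-seq of the whole gland was done on 3 libraries labelled HFD and 3 labelled RD, from a study of obesity, the unfolded protein response and fatty liver. Both groups were male and were sampled 4 h into feeding that followed a 16 h fast. The labels give no strain, age or batch, do not spell out HFD and RD, and do not say that replicates were separate animals. The p-values therefore rest on the spread among these 6 libraries, part of which may be technical. In a bulk sample, a change in the number of cells of a type and a change in RNA per cell cannot be told apart.

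Immediate early genes are transcribed within minutes of a stimulus from factors already present in the cell, and their short-lived mRNAs report recent signalling. EGR proteins are zinc finger factors that bind GC-rich DNA and are held in check by the corepressors NAB1 and NAB2. NR4A proteins are orphan nuclear receptors that are controlled mainly by how much of them is made. In the pituitary, EGR1 is known for carrying the gonadotropin-releasing hormone signal to the Lhb gene in gonadotrophs, and NR4A1 for carrying the corticotropin-releasing hormone signal to Pomc in corticotrophs. The cyclic AMP response element (CRE), bound by CREB, and the CArG box, bound by the serum response factor, are the classical inputs of such genes.

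Totals over the listed genes were 14185372 to 14384933 counts in HFD libraries and 15702214 to 18111345 counts in RD libraries. The 7 genes together took 0.121% to 0.240% of counts in HFD libraries and 0.0356% to 0.128% in RD libraries. Their counts ran from 69 for EGR4 in HFD replicate 2 to 13751 for NR4A1 in HFD replicate 1, and from 17 for EGR4 in RD replicate 2 to 9468 for NR4A1 in RD replicate 1. Levels are given as CPM, the count scaled to the library size after trimmed mean of M-values (TMM) correction, and changes as log2(HFD/RD) ± SE. Changes were tested by edgeR's quasi-likelihood test over all tested genes, with Benjamini-Hochberg adjustment. By that test 3 of the 7 genes were called higher in HFD and 0 lower (5.87% and 4.61% of all tested genes, and 10.5% in either direction). The libraries of HFD lay wholly above those of RD for 3 of the 7, and for 16.9% of all tested genes.

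Among the EGR genes, EGR1 was the most abundant. EGR1 (chromosome 18 of mm10, 34859823 to 34864984, plus strand, 2 exons) stood at 929, 461 and 796 CPM in HFD replicates 1, 2 and 3, against 405, 121 and 212 CPM in RD replicates 1, 2 and 3. The lowest HFD library lay above the highest RD library, so the groups did not overlap. EGR1 averaged 729 ± 241 CPM in HFD and 246 ± 145 CPM in RD (SD, n = 3 each) and rose by a log2 change of 1.57 ± 0.38 (edgeR adjusted p = 0.0298). EGR1 no longer passed without HFD replicate 1 (adjusted p = 0.0939) or HFD replicate 3 (0.115), while the log2 change stayed between 1.24 and 2.12 with any 1 library left out.

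EGR4, the least abundant of the 7 and known in mice for its part in male germ cell maturation, showed the largest change of them. It lies on chromosome 6 (85511121 to 85513589, minus strand, 2 exons). EGR4 stood at 8.53, 4.69 and 8.38 CPM in HFD replicates 1, 2 and 3, against 2.63, 1.11 and 1.85 CPM in RD replicates 1, 2 and 3. All HFD libraries lay above all RD libraries. The mean was 7.20 ± 2.18 CPM in HFD and 1.86 ± 0.76 CPM in RD (SD, n = 3 each), and the log2 change was 1.94 ± 0.34 (edgeR adjusted p = 0.0082). EGR4 was the one gene of the 7 whose call held in each of the 14 alternatives, although without HFD replicate 3 its adjusted p was 0.0498.

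EGR2 (Krox20), which drives myelination in Schwann cells, and EGR3, which is needed for muscle spindles in mice, were not called. EGR2 (chromosome 10, 67535475 to 67542188, plus strand) stood at 30.9, 9.10 and 15.5 CPM in HFD replicates 1, 2 and 3, against 7.95, 7.29 and 13.8 CPM in RD replicates 1, 2 and 3. Only HFD replicate 1 stood well apart, and without it the log2 change was 0.34, against 0.93 ± 0.40 with all libraries (edgeR adjusted p = 0.169, unadjusted p = 0.0412). EGR3 (chromosome 14, 70077203 to 70082614, plus strand) stood at 19.6, 10.1 and 25.2 CPM in HFD replicates 1, 2 and 3, against 12.8, 4.88 and 9.54 CPM in RD replicates 1, 2 and 3. HFD replicate 2 fell below RD replicate 1, so the groups overlapped, and the log2 change was 1.01 ± 0.36 (edgeR adjusted p = 0.108, unadjusted p = 0.0194).

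**Figure D1:**
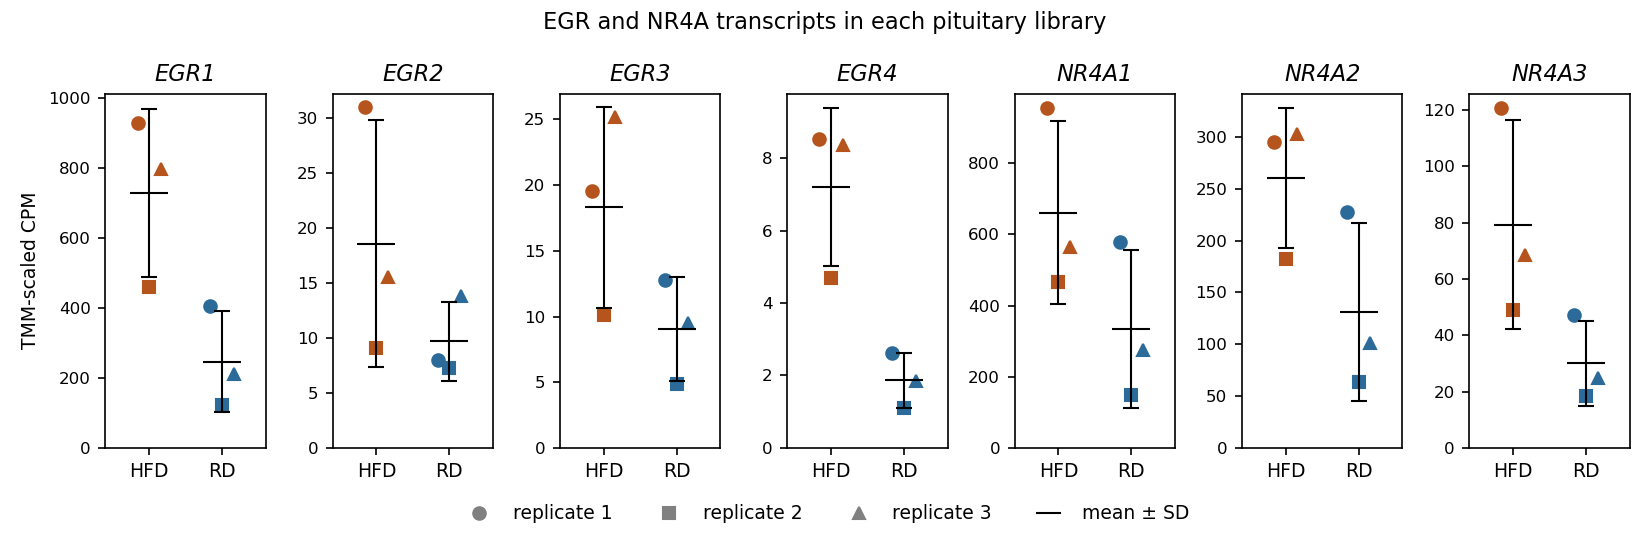
TMM-scaled CPM (linear axis from 0, a separate scale for each gene) of the 7 genes in the 3 HFD and 3 RD pituitary libraries, with marker shapes for the replicate number and bars for mean ± SD. The groups do not overlap for EGR1, EGR4 and NR4A3, and the square of replicate 2 is the lowest point of its group in every panel.

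The promoter sequences of Egr4 and Egr2 are shown because the window used for Egr2 held an exact CArG box and that of Egr4 did not. They are the bases before the RefSeq start site on GRCm38.p6, 5′ to 3′ on the gene's strand. Capitals mark the CRE core TGACG or its complement CGTCA and, in Egr2, a CArG box. The Egr4 stretch is chr6:85513590-85513839 on the minus strand, and the Egr2 stretch is chr10:67537619-67537868 on the plus strand.
Egr4: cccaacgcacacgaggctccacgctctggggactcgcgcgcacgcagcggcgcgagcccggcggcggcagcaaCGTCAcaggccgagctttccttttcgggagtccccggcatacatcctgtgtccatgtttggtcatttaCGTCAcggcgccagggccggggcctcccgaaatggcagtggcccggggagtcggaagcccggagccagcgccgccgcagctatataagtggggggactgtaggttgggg
Egr2: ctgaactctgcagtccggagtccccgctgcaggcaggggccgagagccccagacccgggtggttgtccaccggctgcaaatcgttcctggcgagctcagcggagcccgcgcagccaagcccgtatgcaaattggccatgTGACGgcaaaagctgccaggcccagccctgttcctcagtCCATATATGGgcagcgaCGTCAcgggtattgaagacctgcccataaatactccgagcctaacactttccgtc
Egr4 held the core at 105 to 109 and at 173 to 177 bases before the start, and no exact CArG box. An exact box is CC, a run of only A or T, and GG, as in CCATATATGG. Near matches were not counted, so a weaker box in Egr4 is not excluded. Egr2 held it at 51 to 55 and at 107 to 111 bases, with the CArG box at 63 to 72 bases between them. Of all 32851 promoter windows of the same 250 bases, 17.8% held at least 1 core on either strand, 3.90% at least 2, and 1.47% a CArG box.

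Of the NR4A genes, NR4A3 alone was called. NR4A3 (NOR1; chromosome 4, 48045153 to 48086447, plus strand, 8 exons) stood at 121, 48.9 and 68.5 CPM in HFD replicates 1, 2 and 3, against 47.0, 18.4 and 24.7 CPM in RD replicates 1, 2 and 3. The groups did not overlap, but HFD replicate 2 lay within 2 CPM of RD replicate 1. NR4A3 averaged 79.4 ± 37.1 CPM in HFD and 30.1 ± 15.04 CPM in RD (SD, n = 3 each), a log2 change of 1.40 ± 0.37 (edgeR adjusted p = 0.0394). The call was lost by DESeq2 (adjusted p = 0.0681) and without HFD replicate 1 (0.122), HFD replicate 3 (0.106), RD replicate 2 (0.0965) or RD replicate 3 (0.0661).

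NR4A1 (Nur77; chromosome 15, 101254269 to 101274795, plus strand, 8 exons) stood at 954, 467 and 564 CPM in HFD replicates 1, 2 and 3, against 579, 147 and 275 CPM in RD replicates 1, 2 and 3. RD replicate 1 lay above 2 of the 3 HFD libraries. NR4A1 was not called, at a log2 change of 0.99 ± 0.42 (edgeR adjusted p = 0.166, unadjusted p = 0.0400). NR4A2 (Nurr1, which dopaminergic neurons of the midbrain need; chromosome 2, 57106830 to 57124003, minus strand, 8 exons) stood at 296, 182 and 303 CPM in HFD replicates 1, 2 and 3, against 228, 63.5 and 101 CPM in RD replicates 1, 2 and 3. Here RD replicate 1 lay above HFD replicate 2, and the log2 change was 0.99 ± 0.38 (edgeR adjusted p = 0.128, unadjusted p = 0.0262). Both genes passed without RD replicate 1, at log2 changes of 1.64 for NR4A1 (edgeR adjusted p = 0.0136) and 1.65 for NR4A2 (0.0042), and neither passed with any other 1 library left out.

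**Figure D2:**
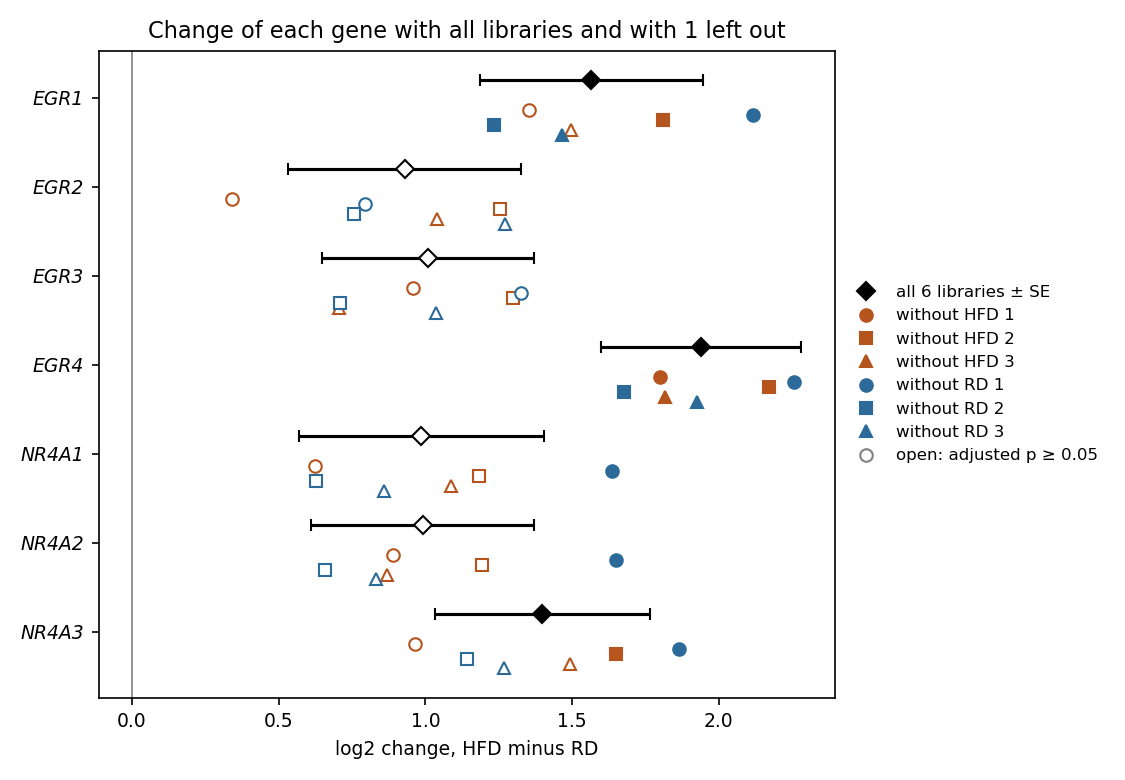
The log2 change HFD minus RD of each gene with all 6 libraries (diamonds, with SE) and with 1 library left out (smaller markers, by library), filled where the edgeR adjusted p was under 0.05. Every value lies above 0, EGR4 is filled throughout, and leaving out RD replicate 1 gives the highest value for EGR1, EGR3, EGR4 and the 3 NR4A genes.

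The promoters of the 3 NR4A genes are shown for the number of CRE cores they share. Capitals mark TGACG or CGTCA and, in Nr4a1, the EGR site GCGGGGGCG on the opposite strand. The stretches are chr15:101266596-101266845 on the plus strand for Nr4a1, chr2:57124004-57124253 on the minus strand for Nr4a2 and chr4:48045055-48045152 on the plus strand for Nr4a3. Those of Nr4a1 and Egr2 lie inside the GENCODE span of the gene, before a start downstream of its first one. That of Nr4a3 is cut to the first 98 bases of its window, since the first GENCODE exon begins there, and shows 3 of its 4 cores.
Nr4a1: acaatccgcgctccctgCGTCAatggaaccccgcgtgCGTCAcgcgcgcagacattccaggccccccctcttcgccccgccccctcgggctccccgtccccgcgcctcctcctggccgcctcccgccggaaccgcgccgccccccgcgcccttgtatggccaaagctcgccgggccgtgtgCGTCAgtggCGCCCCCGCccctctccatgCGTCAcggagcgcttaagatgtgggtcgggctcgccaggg
Nr4a2: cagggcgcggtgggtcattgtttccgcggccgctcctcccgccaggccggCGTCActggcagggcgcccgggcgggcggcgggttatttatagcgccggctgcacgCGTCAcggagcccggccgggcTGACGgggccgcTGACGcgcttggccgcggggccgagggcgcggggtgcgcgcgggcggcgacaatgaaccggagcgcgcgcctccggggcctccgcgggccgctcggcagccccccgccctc
Nr4a3: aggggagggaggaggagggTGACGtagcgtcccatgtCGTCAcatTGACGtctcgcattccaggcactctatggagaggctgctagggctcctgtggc
Each of these 3 windows of 250 bases held the core 4 times, and 0.137% of all windows held it at least that often. In Nr4a1 the cores lay as a pair at 209 to 213 and 229 to 233 bases before the start, and as a pair at 36 to 40 and 65 to 69 bases on either side of the EGR site. In Nr4a3 the core sites at 201 to 205, 209 to 213 and 227 to 231 bases lay close together. The other, at 143 to 147 bases, lay inside the first GENCODE exon. The RefSeq start used for Nr4a3 did not match the start of a GENCODE coding transcript. In Nr4a2 they lay at 107 to 111, 119 to 123, 140 to 144 and 196 to 200 bases. The EGR site GCGGGGGCG was in 2.57% of all windows. The full palindrome TGACGTCA (1.55% of all windows), the EGR site GCGTGGGCG (0.536%) and the NR4A site AAAGGTCA (1.34%), searched on both strands, were not in these 5 windows. Matching letters are a description and do not show that a factor was bound.

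**Figure D3:**
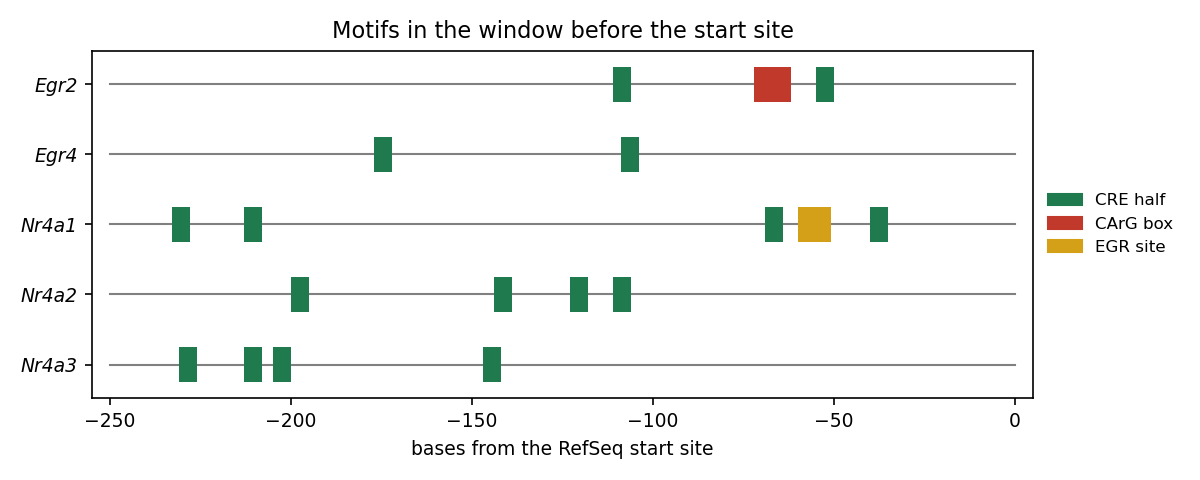
Positions of the CRE core, the CArG box and the EGR site in the window before the RefSeq start site (0 on the axis, in bases). The 5 genes whose promoter window was used are shown, named as in RefSeq, and windows on chromosome 18, where EGR1 lies, were left out. All 5 lines carry at least 2 CRE cores, and the 3 NR4A lines carry 4 each.

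Levels were compared between the genes per kilobase of the longest GENCODE coding transcript. In HFD the order was NR4A1 (259 ± 101 CPM per kb), EGR1 (163 ± 53.8), NR4A2 (73.0 ± 19.0), NR4A3 (13.9 ± 6.48), EGR2 (6.25 ± 3.79), EGR3 (4.64 ± 1.94) and EGR4 (3.35 ± 1.01; SD, n = 3). In RD the order by mean was the same, with NR4A1 at 131 ± 86.9, EGR1 at 54.9 ± 32.3, NR4A2 at 36.7 ± 24.1, NR4A3 at 5.26 ± 2.63, EGR2 at 3.27 ± 1.21, EGR3 at 2.30 ± 1.01 and EGR4 at 0.867 ± 0.355 CPM per kb (SD, n = 3). Neighbours whose ranges of mean ± SD overlapped in both groups were NR4A1 and EGR1, NR4A3 and EGR2, and EGR2 and EGR3. Those of EGR3 and EGR4 overlapped in HFD alone, and those of EGR1 and NR4A2 in RD alone. Within each single library, however, NR4A1 was above EGR1 and EGR1 above NR4A2 per kilobase.

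The spread between replicates of these genes was wide. The ratio of the highest to the lowest library was 2.04 in HFD and 3.93 in RD for NR4A1, 1.66 in HFD and 3.58 in RD for NR4A2, and 2.01 in HFD and 3.34 in RD for EGR1. For EGR2 it was 3.40 in HFD and 1.89 in RD. The SD within groups was between 0.53 (EGR4) and 0.79 (NR4A1) on the log2 CPM scale, which put the 7 genes between the 95.2 and the 98.8 percentile of all tested genes. Among genes within 0.5 log2 units of its own level, EGR4 lay at the 91.7 percentile and the other 6 at the 99.4 percentile or above.

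Libraries of a group were high or low for these genes together. All 7 had their lowest HFD level in HFD replicate 2, as did 31.1% of all tested genes, and their lowest RD level in RD replicate 2, as did 30.5%. HFD replicate 1 was the highest HFD library for 5 of the 7, EGR3 and NR4A2 being the exceptions, and RD replicate 1 the highest RD library for 6 of the 7, EGR2 being the exception. Over all tested genes these shares were 35.8% for HFD replicate 1 and 32.0% for RD replicate 1. Median deviations of the 7 from their group mean were 0.41, -0.60 and 0.19 log2 units in HFD replicates 1, 2 and 3, against 0.76, -0.77 and -0.04 in RD replicates 1, 2 and 3. Over all tested genes these medians lay within 0.01 of 0. The 7 genes come from the same libraries, so these counts are not independent of each other.

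**Figure D4:**
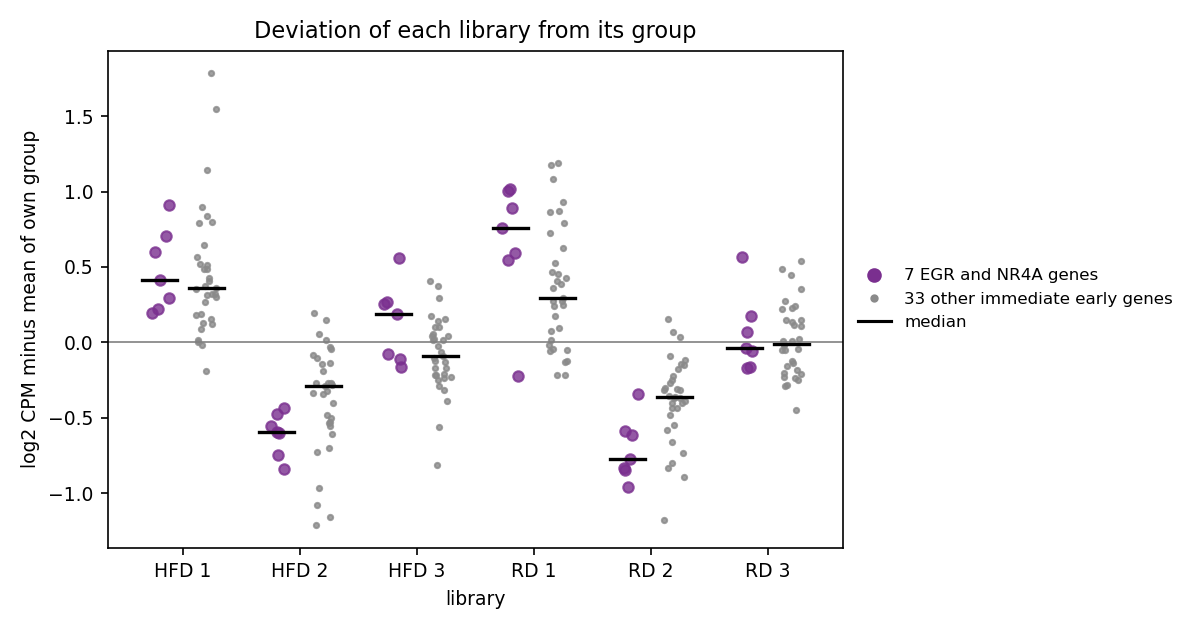
Each library's log2 CPM minus the mean of its own group, for the 7 EGR and NR4A genes and for 33 other immediate early genes, with medians as bars. Both sets lie mostly below 0 in HFD replicate 2 and RD replicate 2, and mostly above 0 in HFD replicate 1 and RD replicate 1.

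Of 33 other immediate early genes tested from a list of 34, 8 rose and none fell by edgeR's test (24.2%, against 5.87% of all tested genes called higher). In 32 of the 33 the log2 change was positive, and the median log2 change was 0.61, against -0.00 over all tested genes. HFD replicate 2 was the lowest HFD library for 25 of the 33 and RD replicate 2 the lowest RD library for 27. The 4 calls with the smallest p were FOSL2, an AP-1 subunit (1.15 ± 0.18, adjusted p = 0.0053), the clock repressor PER1 (0.79 ± 0.16, adjusted p = 0.0161), SIK1, a kinase induced by cyclic AMP that holds back CREB coactivators (1.31 ± 0.28, adjusted p = 0.0185), and ATF3 (1.34 ± 0.32, adjusted p = 0.0272). FOSL2 stood at 303, 215 and 203 CPM in HFD replicates 1, 2 and 3, against 126, 81.1 and 118 CPM in RD replicates 1, 2 and 3, and its call held with any 1 library left out. PER1, SIK1 and ATF3 did not pass without HFD replicate 1 (adjusted p from 0.0510 to 0.0772) or HFD replicate 3 (0.0701 to 0.130), nor ATF3 without RD replicate 2 (0.0761). The count of 8 was 1 without HFD replicate 1, 1 without HFD replicate 3, 3 without RD replicate 2 and 12 without RD replicate 1. It was 14 with the replicate number as a term in the fit.

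The profiles over the 6 libraries nearest to those of EGR1, EGR4 and NR4A3 were compared next. Nearness was the root mean square difference of log2 CPM after centring each gene on its own mean, over 12751 genes whose mean log2 CPM reached 1. The difference between HFD and RD is part of such a profile, so genes chosen this way share much of it by the choice itself. For EGR1 the nearest were JUNB, an AP-1 subunit (0.15 log2 units), the row named MIR212 (0.23) and SIK1 (0.27). For NR4A3 they were JUNB (0.13), IER2 (0.19) and MIR212 (0.22), and for EGR4 they were GUCY2F, a retinal guanylate cyclase (0.23), CCDC60 (0.26) and JUNB (0.28). JUNB stood at 404, 196 and 287 CPM in HFD replicates 1, 2 and 3, against 177, 61.3 and 83.9 CPM in RD replicates 1, 2 and 3. It rose (1.46 ± 0.36, edgeR adjusted p = 0.0319), but not by DESeq2 (0.0628) or without HFD replicate 1 (0.101), HFD replicate 3 (0.107), RD replicate 2 (0.0698) or RD replicate 3 (0.0534). Among the 7 themselves, EGR4 lay 0.22 from EGR1, nearer than any of the 12751 genes lay to EGR4, while EGR2 lay 0.75 from EGR1, with 401 genes nearer.

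Of 12 corepressors and reported targets of the EGR factors, none was called higher and 3 fell (25.0%, against 4.61% of all tested genes called lower). The log2 change was positive in 4 and negative in 8 of the 12, with a median of -0.11. The corepressor NAB1 stood at 47.4, 50.1 and 40.6 CPM in HFD replicates 1, 2 and 3, against 55.2, 59.6 and 65.5 CPM in RD replicates 1, 2 and 3 (-0.39 ± 0.10, edgeR adjusted p = 0.0425). NAB2, a corepressor that EGR factors themselves induce, differed by 0.10 ± 0.18 log2 units, short of a call (adjusted p = 0.767). LHB, the luteinizing hormone beta subunit, stood at 206, 276 and 260 CPM in HFD replicates 1, 2 and 3, against 305, 319 and 328 CPM in RD replicates 1, 2 and 3 (-0.36 ± 0.10, adjusted p = 0.0462). HFD replicate 1, the highest in EGR1, was the lowest in LHB. With 1 library left out, the call of LHB was lost in each of the 6 fits (0.0517 to 0.115) and that of NAB1 in all but the fit without RD replicate 1 (0.0612 to 0.165, against 0.0343). With library totals as the only scaling the adjusted p was 0.0649 for NAB1 and 0.0904 for LHB, and with upper-quartile scaling LHB was lost too (0.0718). The count of 3 was 0 without any 1 HFD library, without RD replicate 2 or with library totals. It was 1 without RD replicate 3 or with the replicate number as a term, and 2 without RD replicate 1 or with upper-quartile scaling. By DESeq2, with the replicate number as a term or in a fit with 1 library left out, 1 gene of the list was called higher.

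Of 9 tested partners and reported targets of the NR4A receptors none was called higher and 1 fell, against 5.87% and 4.61% of all tested genes, and the median log2 change was -0.11. Without RD replicate 2, 1 was called higher, and without RD replicate 1 or with the replicate number as a term, 2 were called lower. The one that fell was ENO3, the muscle enolase, reported as an NR4A target in muscle (-0.82 ± 0.10, edgeR adjusted p = 0.0016). POMC, the corticotropin precursor, stood at 5792, 13677 and 11155 CPM in HFD replicates 1, 2 and 3, against 9447, 5526 and 5537 CPM in RD replicates 1, 2 and 3, and was not called (0.58 ± 0.29, adjusted p = 0.233). In HFD, replicate 1 was the lowest in POMC and the highest in NR4A1, whereas in RD, replicate 1 was the highest in both. The summed melanotroph markers, given below, had the same lowest HFD library and the same highest RD library as POMC. Which cells the POMC level came from was not tested. The retinoid X receptors, partners with which NR4A1 and NR4A2 form dimers, were not called, at log2 changes of 0.19 ± 0.10 for RXRA, 0.11 ± 0.09 for RXRB and 0.40 ± 0.16 for RXRG (adjusted p from 0.152 to 0.452).

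Of 15 serum response, CREB and MEF2 factors none was called in either direction by edgeR, DESeq2 or limma-voom, against 10.5% of all tested genes by edgeR, and the median log2 change was 0.04. With upper-quartile scaling, with library totals as the only scaling or without RD replicate 1, 1 was called higher. Before adjustment 2 of them lay under 0.05 by edgeR, CRTC1 (0.23 ± 0.07, adjusted p = 0.0562) and MEF2C (0.30 ± 0.12, adjusted p = 0.155), named here after their values were seen. SRF, the serum response factor, had a log2 change of 0.11 ± 0.21, its partners ELK1, ELK3 and ELK4 of -0.13 ± 0.09, 0.13 ± 0.08 and -0.12 ± 0.07, CREB1 of -0.14 ± 0.07, and CREM, whose inducible product represses cyclic AMP targets, of 0.15 ± 0.19. Of 16 upstream kinases and phosphatases, CAMK2B, a calcium-dependent kinase, was the one call (-0.25 ± 0.07, edgeR adjusted p = 0.0406). That is 6.25% of the list, near the 4.61% of all tested genes called lower and below the 10.5% called in either direction. The call was lost without any 1 HFD library (up to 0.142), without RD replicate 1 (0.0708), with upper-quartile scaling (0.0624) and with library totals as the only scaling (0.102). Without RD replicate 1 or RD replicate 3, with library totals as the only scaling, or with the replicate number as a term, 1 gene of the list was called higher. The activity of these proteins is not measured by their mRNA.

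**Figure D5:**
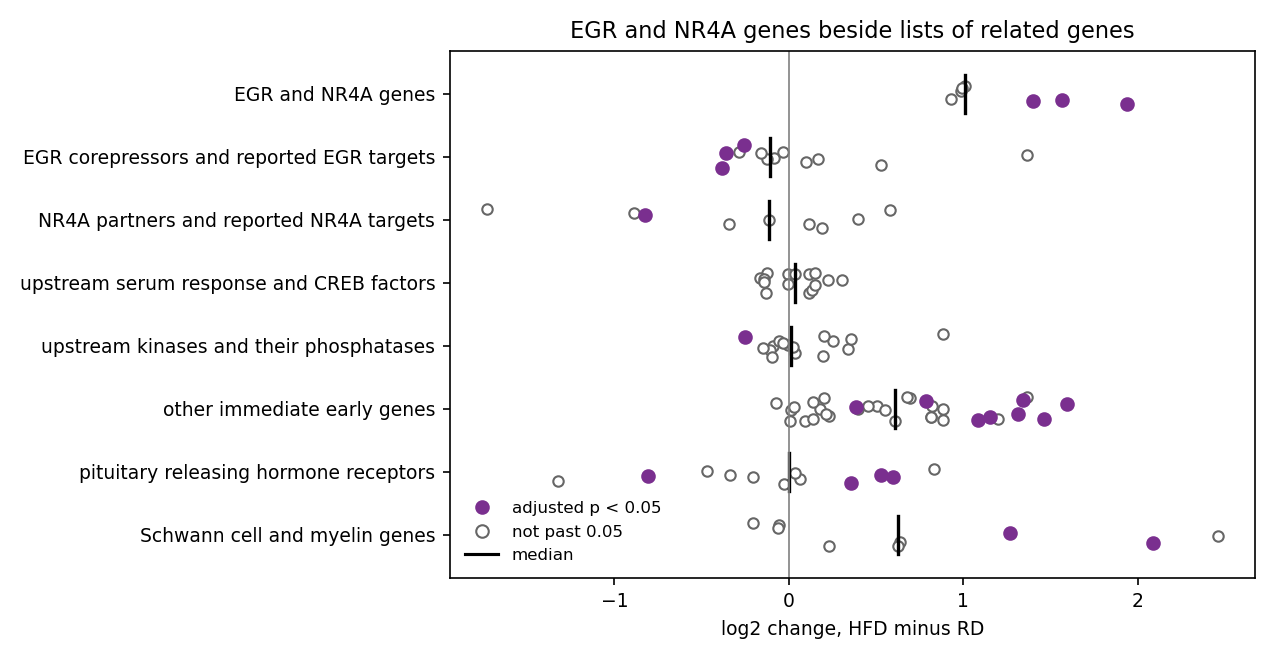
The log2 change HFD minus RD of each tested gene in the EGR and NR4A set and in 7 lists of related genes (rows), filled where the edgeR adjusted p was under 0.05, with medians as bars. The EGR and NR4A genes lie between 0.93 and 1.94, while the medians of the upstream factors and of the EGR and NR4A target lists lie between -0.11 and 0.04.

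Of 12 receptors for releasing hormones and related signals, 3 rose and 1 fell, against 5.87% of all tested genes called higher and 4.61% lower. The count of 3 was 0 without HFD replicate 3, and 2 without RD replicate 2 or RD replicate 3. It was 1 without HFD replicate 1, HFD replicate 2 or RD replicate 1, or with the replicate number as a term. The count of 1 was 3 without RD replicate 1, and 2 without RD replicate 2 or by DESeq2. The receptor for PACAP, ADCYAP1R1, which signals through cyclic AMP, stood at 72.4, 66.4 and 81.9 CPM in HFD replicates 1, 2 and 3, against 49.4, 53.4 and 43.3 CPM in RD replicates 1, 2 and 3 (0.60 ± 0.11, edgeR adjusted p = 0.0088). The corticotropin-releasing hormone receptor CRHR1 (0.36 ± 0.09, adjusted p = 0.0314) and the thyrotropin-releasing hormone receptor TRHR (0.53 ± 0.14, adjusted p = 0.0394) rose too. GNRHR, the gonadotropin-releasing hormone receptor, stood at 93.3, 78.0 and 72.4 CPM in HFD replicates 1, 2 and 3, against 116, 141 and 170 CPM in RD replicates 1, 2 and 3 (-0.81 ± 0.14, adjusted p = 0.0074). The call of ADCYAP1R1 was lost without HFD replicate 3 (0.0514), and those of CRHR1 and TRHR without any 1 HFD library or RD replicate 1 (adjusted p from 0.0649 to 0.141). CRHR1 also failed without RD replicate 2 (0.0811) and TRHR without RD replicate 3 (0.0774). Both failed with the replicate number as a term (0.0734 for CRHR1 and 0.0747 for TRHR). The call of GNRHR held with any 1 library left out.

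EGR2 is a regulator of Schwann cell myelin, and in a list of 9 tested Schwann cell and myelin genes 2 rose and none fell (22.2%, against 5.87% of all tested genes called higher). Among them MAG, a glycoprotein of myelin, stood at 1.39, 1.90 and 2.23 CPM in HFD replicates 1, 2 and 3, against 0.67, 0.26 and 0.35 CPM in RD replicates 1, 2 and 3. It rose by 2.08 ± 0.44 log2 units (edgeR adjusted p = 0.0171). The call was lost without HFD replicate 2, HFD replicate 3 or RD replicate 2 (0.0561 to 0.0801), or with the replicate number as a term (0.0521). The list's count of 2 ranged from 0 to 3 over the alternatives, and was 0 with the replicate number as a term. HFD replicate 3 was the highest in MAG, whereas HFD replicate 1 was the highest in EGR2.

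Of 16 lists of cell type markers, the summed level of 6 did not overlap between the groups. Taken singly, 32.5% of all tested genes did not overlap in either direction. The 2 shares are unlike measures, since a sum follows the most abundant genes of its list. Thyrotroph markers (3 of 3 tested) summed to 440 to 474 CPM in HFD and 227 to 312 CPM in RD, and oligodendrocyte markers (3 of 4 tested) to 6.93 to 23.6 CPM in HFD and 5.14 to 6.61 CPM in RD, with MOG at 0 counts in RD replicates 1 and 2. Pineal markers (1 of 3 tested) summed to 1.18 to 1.90 CPM in HFD and 0.917 to 1.16 CPM in RD. The sum includes ASMT, at 3, 5 and 5 counts in HFD replicates 1, 2 and 3, against 0, 0 and 2 in RD replicates 1, 2 and 3. TPH1 was at 0 in every library but RD replicate 2, which had 3 counts. Markers of somatotrophs (3 of 3 tested; 36960 to 40008 CPM in HFD, 59531 to 72324 CPM in RD), lactotrophs (2 of 2 tested; 9623 to 12263 CPM in HFD, 13782 to 15273 CPM in RD) and gonadotrophs (4 of 4 tested; 1023 to 1107 CPM in HFD, 1345 to 1512 CPM in RD) had lower sums in HFD. Among the 4 gonadotroph markers, LHB, FSHB and GNRHR fell, whereas NR5A1, a nuclear receptor of gonadotrophs, rose (0.49 ± 0.11, edgeR adjusted p = 0.0217). NR5A1 stood at 44.8, 38.2 and 40.1 CPM in HFD replicates 1, 2 and 3, against 31.9, 25.7 and 30.1 CPM in RD replicates 1, 2 and 3, and was named after its values were seen. The hormone genes that define the labelled gland (GH1, PRL, POMC, TSHB and LHB) were present in every library. Melanotroph markers (2 of 2 tested) overlapped and summed to 226, 542 and 473 CPM in HFD replicates 1, 2 and 3, against 451, 283 and 276 CPM in RD replicates 1, 2 and 3. Replicate 1 was thus the lowest HFD library and the highest RD library, as it was for POMC. The part of these markers in the EGR and NR4A changes was not tested.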

How the data were processed

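Per the labels, polyadenylated RNA of male mouse pituitaries was sequenced in 3 HFD and 3 RD libraries. The deposited table holds raw counts per gene symbol, not normalized, and the build was mm10 per the submitters' processing notes. No source used here names the aligner, counter, annotation or strand setting. Of counts from 1 to 10, 64.0% to 67.0% were even, against 48.9% to 50.4% above 200, so both mates of a pair may have been counted and halved counts were tried. The 43 symbols that stood on more than 1 row were kept out of lists.

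Counts were tested in R 4.3.3 with edgeR 4.0.16 (TMM, minimum count 10, minimum total 15, intercept and group, threshold 0.05), and levels on the log2 scale used a prior count of 2. The SE was taken as the size of the log2 change over the root of the F statistic. Alternatives were other scalings, no filter, DESeq2 1.42.0, limma-voom (limma 3.58.1), a replicate block, halved counts and each library left out. The fit was checked on simulated data. Named genes are the 7 members, genes tied to them by role, up to 4 called genes with the smallest p of each list, and the 3 profiles nearest to each called member. The members and lists were chosen with earlier results of these data known, and some genes of the lists are not reported here. Promoters are from RefSeq (GRCm38.p6), with windows on chromosome 18, where EGR1 lies, left out of the search. Among the remaining windows 5 of the 7 genes matched by symbol. Gene positions and transcripts are from GENCODE M21. Where a gene had several windows, the first whose start matched a GENCODE coding transcript was used.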

Additional observations from a re-analysis of the deposited data

How the results depend on the processing

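With 1 library left out, the number of EGR and NR4A genes called was 1 to 5 (0 lower in every fit), and the number of all genes called 431 to 1523, of which 243 to 813 were higher and 188 to 710 lower, against 1453, 814 and 639 with all libraries. The fewest calls came without HFD replicate 3 (431), HFD replicate 2 (490), HFD replicate 1 (701) and RD replicate 2 (890). Log2 changes then ranged from 1.24 to 2.12 for EGR1, 0.34 to 1.27 for EGR2, 0.71 to 1.33 for EGR3, 1.68 to 2.26 for EGR4, 0.63 to 1.64 for NR4A1, 0.66 to 1.65 for NR4A2 and 0.96 to 1.87 for NR4A3. By DESeq2 the log2 change of NR4A3 was 1.39 and its call was lost; the cause was not tested. With library totals as the only scaling 425 genes were called lower, and the share of calls that were higher was 72.5%, against 56.0% with TMM. No scaling moved the median of all tested genes by over 0.07 log2 units, and the 7 genes kept their direction in all 14 alternatives.

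The replicate block, with the replicate number as a term, called 808 genes, 473 higher and 335 lower, and 6 of the 7 EGR and NR4A genes. EGR3 (1.02, adjusted p = 0.0189), NR4A1 (1.14, 0.0079) and NR4A2 (1.16, 0.0212) passed with it by edgeR, and EGR2 did not (0.83, 0.178), while NAB1 (0.0937) and CAMK2B (0.0971) lost their calls. Over all genes, however, the deviations of same-numbered HFD and RD libraries correlated at -0.127, 0.00371 and -0.0972 for numbers 1, 2 and 3. HFD replicate 1 correlated best with RD replicate 3 (0.106). For each of the 7 genes, in contrast, replicate 2 was the lowest library of both groups. The labels do not say that equal numbers pair libraries, and correlations over all genes with so few libraries cannot decide it. Of the 31 other genes the rule chose, none of them called in these cases, NAB2 (-0.16 to 0.25 with 1 library left out) and SRF (-0.10 to 0.34) turned negative without HFD replicate 1, and SRF (-0.07) and CREM (-0.044 to 0.38) without RD replicate 2. Of their 434 values under the alternatives, 361 kept direction and side of the threshold, 63 lost a call and 6 gained one. EGR4 rests on 17 to 124 counts a library, and counting error weighs most there.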

Other observations

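Ratios between the 7 genes were taken within each library. Of the 21 pairs, 6 had ratios that did not overlap between the groups (32.0% of all pairs of tested genes did not), a share near that background. EGR1 to NR4A1 was 0.974, 0.989 and 1.41 in HFD replicates 1, 2 and 3, against 0.699, 0.823 and 0.772 in RD replicates 1, 2 and 3. EGR3 to EGR4 was 2.29, 2.16 and 3.01 in HFD replicates 1, 2 and 3, against 4.86, 4.41 and 5.16 in RD replicates 1, 2 and 3. NR4A1 to NR4A2 overlapped, at 3.23, 2.56 and 1.86 in HFD replicates 1, 2 and 3, against 2.54, 2.32 and 2.72 in RD replicates 1, 2 and 3, and none of the 3 ratios among NR4A genes separated the groups.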
